A study of Mus musculus with 13 samples.

Results

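The klotho family of transmembrane glycosidase-like proteins and the FGF genes of adipose tissue were described gene by gene in whole parametrial white adipose tissue (pmWAT), a fat depot of the female mouse. The 7 genes were *Lctl*, *Klb*, *Kl*, *Fgfr1*, *Fgf1*, *Fgf10* and *Fgf21*, taken by symbol from the 33618 genes of the count table as the klotho family, FGF receptor 1 and FGF ligands of adipose tissue. They were chosen with their values in the same genotype comparison known, so their differences between genotypes are given as descriptions, without a test. Bulk RNA-Seq was done on 7 libraries labelled Lmna fl/fl and 6 labelled Lmna iADKO, each from a different female mouse. Both groups carried *Lmna* alleles with *loxP* sites around exons of the gene, and both received tamoxifen at 50 mg/kg on 5 consecutive days at 12 to 14 weeks of age, with tissue taken 2 weeks later. The iADKO mice also carried *Adipoq*-CreERT2, a tamoxifen-inducible recombinase under a promoter active in adipocytes, which the fl/fl controls lacked. The presence of Cre and the loss of lamin A/C therefore cannot be told apart. The batch label was the same for all 13 libraries.

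The libraries held 18854223 to 19776491 counts each. In the libraries labelled fl/fl, *Lmna* was at 84.7 ± 7.51 CPM (SD, n = 7), and in those labelled iADKO at 96.7 ± 11.5 CPM (SD, n = 6), where CPM are counts scaled by TMM to a common library size. The counts cover the whole gene, so the deleted exons were not counted apart and the directions given here rest on the labels. Each of the 10 adipocyte markers fell in iADKO, and their summed level was 19300 to 30300 CPM (median 26700) in fl/fl and 12100 to 21200 CPM (median 14000) in iADKO. Of 9 macrophage markers, 7 rose. Of the other marker lists, 4 of 5 brown adipocyte and 2 of 5 endothelial genes fell, while 2 of 4 tested epithelial and 2 of 6 lymphocyte genes rose. No adipose progenitor, mural, mesothelial or skeletal muscle gene passed the test. Over all genes tested, 14.1% rose and 16.3% fell, and these lists are short. In whole tissue, fewer cells of a type and less RNA per cell cannot be told apart. A pair of libraries stood nearest to the other genotype: fl/fl replicate 5 had the lowest adipocyte marker sum of its group and a macrophage marker sum of 5930 CPM, against 2340 to 4060 CPM in the other fl/fl mice, and iADKO replicate 6 had the highest adipocyte marker sum of its group and a macrophage marker sum of 3590 CPM, against 5190 to 6200 CPM in the other iADKO mice.

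FGF ligands bind receptor tyrosine kinases on the cell surface. Most act locally and need heparan sulfate to bind, whereas the endocrine FGFs bind heparan sulfate weakly and need a klotho protein as coreceptor. β-Klotho with FGFR1 forms the receptor of FGF21 on adipocytes, α-klotho serves FGF23 in kidney, and the receptor signal runs through the adaptor FRS2 to the ERK cascade. *Lctl* encodes the lactase-like member of the klotho family, which is known chiefly from the lens of the eye.

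Promoter windows of 3 of the genes are shown because *Lctl* had the widest gap between genotypes of the 7 genes, *Klb* is its adipocyte paralog, and transcription regulators of *Fgf21* are described further on. Each window is the 250 bases before the start of the canonical transcript, read 5′ to 3′ on the strand of the gene from GRCm39, the build the submitters' processing notes name as mm39. The annotated *Fgf21* gene begins upstream of its canonical transcript, so its window lies inside the gene and its distances hold for that transcript. Capitals mark matches, on either strand, to the letters of a motif that was searched.
*Lctl*, chr9:64024179-64024428, plus strand: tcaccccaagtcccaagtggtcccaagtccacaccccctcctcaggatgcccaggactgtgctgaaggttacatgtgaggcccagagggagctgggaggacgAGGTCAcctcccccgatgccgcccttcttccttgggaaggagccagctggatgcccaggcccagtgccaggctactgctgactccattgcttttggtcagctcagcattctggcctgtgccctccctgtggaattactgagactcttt
*Klb*, chr5:65505407-65505656, plus strand: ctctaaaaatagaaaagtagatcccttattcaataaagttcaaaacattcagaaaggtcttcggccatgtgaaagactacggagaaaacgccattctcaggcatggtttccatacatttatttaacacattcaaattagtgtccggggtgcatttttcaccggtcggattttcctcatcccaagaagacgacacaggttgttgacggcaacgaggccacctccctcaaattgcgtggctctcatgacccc
*Fgf21*, chr7:45264915-45265164, minus strand: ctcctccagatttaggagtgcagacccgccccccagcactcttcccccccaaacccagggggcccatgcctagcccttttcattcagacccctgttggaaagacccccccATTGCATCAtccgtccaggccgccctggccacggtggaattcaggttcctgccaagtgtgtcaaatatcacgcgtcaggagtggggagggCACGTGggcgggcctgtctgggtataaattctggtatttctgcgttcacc

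The capitals of the *Lctl* window are the nuclear receptor motif AGGTCA, 143 bases before the start. It was present in 12.5% of 17952 such windows of genes. The *Fgf21* window held the ATF4 amino acid response element TGATGCAAT on the opposite strand, 132 bases before the start, which 0.145% of the windows held, and the E-box CACGTG, 45 bases before the start, which 7% held. The *Klb* window held no match. Also searched on both strands were the PPAR-RXR element and the LXR-RXR element, which are spaced repeats of AGGTCA and so overlap it, the cAMP response element TGACGTCA, the SREBP element and the serum response element. They were in 0.0446%, 0%, 1.77%, 0.0613% and 0.0279% of the windows. None of these letters was in a window of the 7 genes, which says only that the letters are not there. The *Lctl* window held 3 CpG dinucleotides and the *Klb* window 10, beside a median of 10 over all windows.

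Per kilobase of exon, the 7 genes spanned from nearly absent to well expressed. In fl/fl, the mean levels were 25.9 ± 7.89 CPM per kb for *Fgf1*, 17.6 ± 0.912 for *Fgfr1*, 17.0 ± 9.61 for *Lctl*, 14.8 ± 3.10 for *Fgf10* and 8.96 ± 2.12 for *Klb* (SD, n = 7). The ranges of *Fgf1*, *Fgfr1*, *Lctl* and *Fgf10* in fl/fl overlapped between neighbours in this order, and *Klb*, at 5.14 to 10.9 CPM per kb, overlapped with *Lctl* but not with *Fgf10*, at 11.8 to 19.3. In iADKO, the order was *Fgf1* at 27.0, *Fgfr1* at 17.9, *Fgf10* at 11, *Klb* at 7.89 and *Lctl* at 3.32 CPM per kb. Mouse by mouse, *Lctl* was above *Klb* in all 7 fl/fl mice and above *Fgf10* in 4 of them, and it was below both in all 6 iADKO mice. *Fgf21*, at 0.156 and 0.176 CPM per kb, and *Kl*, at 0.00259 and 0.0131 CPM per kb, were below the other 5 genes in every mouse. The length used is that of all annotated exons of a gene together, which makes genes with many transcripts, such as *Fgfr1*, appear lower.

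*Lctl* (ENSMUSG00000032401) lies on the plus strand of chromosome 9 of GRCm39 from 64024429 to 64045400, with 14 exons in its canonical transcript. It was at 64.1, 32.9, 55.8, 90.2, 15.1, 32.5 and 28.3 CPM in fl/fl replicates 1 to 7. It was at 11.3, 7.04, 8.90, 6.24, 6.88 and 13.1 CPM in iADKO replicates 1 to 6. All 6 iADKO mice were below all 7 fl/fl mice, and the gap was narrow: the highest iADKO mouse, replicate 6, and the lowest fl/fl mouse, replicate 5, are the libraries with the adipocyte marker sums nearest to the other group. The mean level was 45.6 ± 25.8 CPM in fl/fl (SD, n = 7) and 8.91 ± 2.75 CPM in iADKO (SD, n = 6), a ratio of 5.11. The log2 fold change was -2.35 (standard error 0.39), the 14th lowest of 16753 genes tested. These means rested on 299 to 1680 counts per mouse in fl/fl and 130 to 266 in iADKO, so the spread between mice and not counting error set the precision. Library names carry single animal numbers, which were grouped into series here, since the names give no series. In the series with 3 fl/fl mice, the number of iADKO replicate 1 lay apart from the others and was placed there by choice. All results by series rest on this grouping. Of the series, 2 hold both genotypes, while 1 holds only fl/fl mice (2 mice) and 1 only iADKO mice (2 mice). Mean log2 CPM differed by -2.44 in one series (3 fl/fl mice, 2 iADKO mice) and by -2.02 in the other (2 of each).

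*Klb* (ENSMUSG00000029195; chromosome 5, plus strand, 65505657 to 65541827) encodes β-klotho. It was at 55.1, 53.2, 54.6, 46.3, 25.9, 43.8 and 37.3 CPM in fl/fl replicates 1 to 7. It was at 34.0, 38.0, 42.5, 45.4, 39.3 and 39.5 CPM in iADKO replicates 1 to 6. The genotypes overlapped throughout, with every iADKO mouse inside the fl/fl range, and fl/fl replicate 5 was the lowest of all 13 mice. The mean level was 45.2 ± 10.7 CPM in fl/fl (SD, n = 7) and 39.8 ± 3.88 CPM in iADKO (SD, n = 6), and the log2 fold change was -0.18 (standard error 0.15). The difference changed sign between the series of animal numbers, at -0.59 in mean log2 CPM in the one with 3 fl/fl mice and 0.29 in the other, to which fl/fl replicate 5 belongs, as does iADKO replicate 6.

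*Kl* (ENSMUSG00000058488; chromosome 5, plus strand, 150876072 to 150917284), the gene of α-klotho, was close to absent. It had 3 counts over the 7 fl/fl libraries, in 2 of the mice, and 15 over the 6 iADKO libraries. Of those 15 counts, 10 came from iADKO replicate 6, and the other 5 iADKO mice together had 5. In iADKO replicate 6, the summed level of 5 epithelial markers was 199 CPM, against 11.2 to 63.1 CPM in the other 12 mice, and the part of epithelial RNA in the *Kl* counts was not tested. *Kl* was below the filter on low counts, and a genotype difference was not detectable at this depth.

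**Figure D1:**
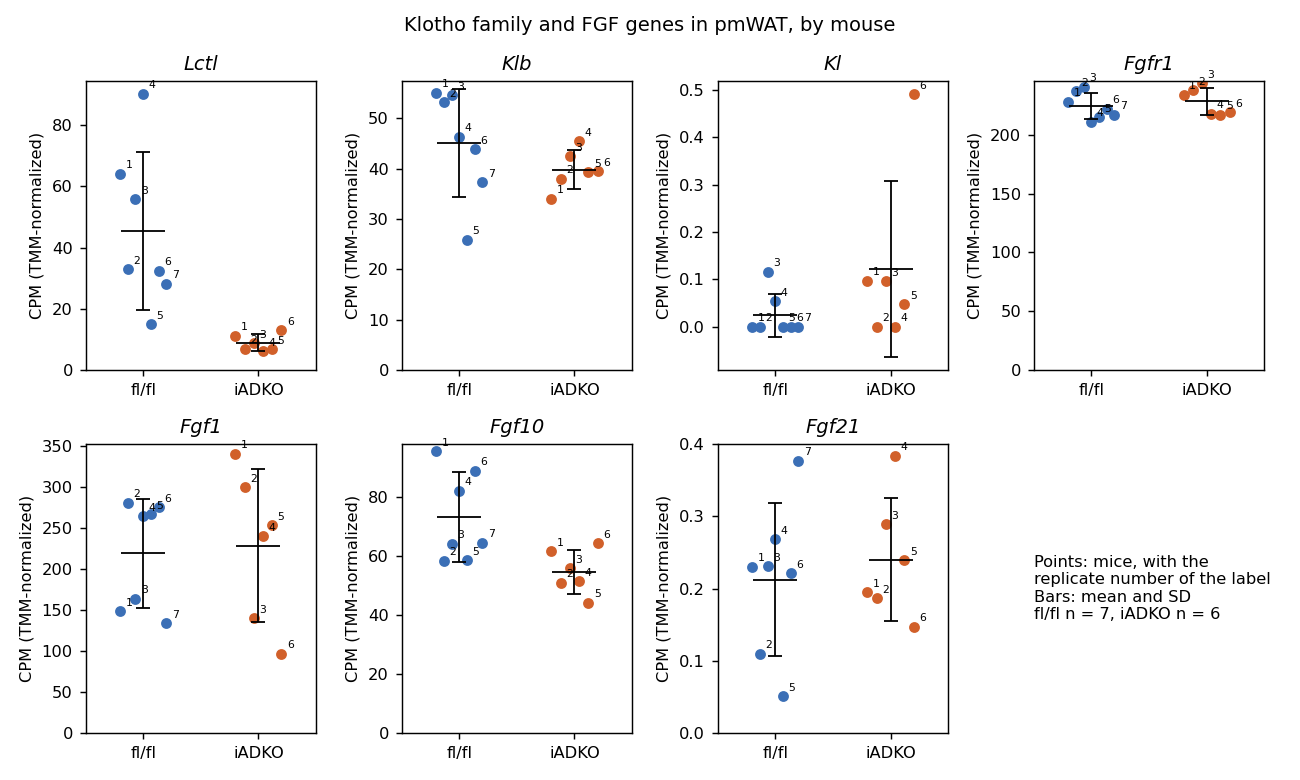
Levels of the 7 genes in CPM after TMM normalization in each mouse by label (fl/fl, n = 7, and iADKO, n = 6), each panel on its own linear scale. Points carry the replicate number, and bars give the mean and SD. *Lctl* alone showed groups that did not overlap, with iADKO mice at 6.24 to 13.1 CPM and fl/fl mice at 15.1 to 90.2 CPM.

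The spread of *Lctl* among fl/fl mice was wide, with a 5.96-fold range between the lowest and the highest, beside 2.12-fold for *Klb* and 1.15-fold for *Fgfr1*. Relative to the adipocyte marker sum, *Lctl* was at 0.784 to 3.47 CPM per 1000 CPM of adipocyte markers in fl/fl (median 1.36, n = 7) and at 0.450 to 0.799 in iADKO (median 0.577, n = 6). On this scale the groups overlapped, with iADKO replicate 1 just above fl/fl replicate 5. The 10 adipocyte markers had log2 fold changes of -1.15 to -0.61 (median -0.94), and *Lctl* lay below all of them. *Klb* relative to the same sum was at 1.30 to 2.20 in fl/fl (median 1.78) and 1.86 to 3.27 in iADKO (median 2.84). The adipocyte marker sum moved with genotype together with *Lctl*, and its part in the *Lctl* difference was not tested.

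After the genotype means were subtracted, *Lctl* in the 13 mice had Pearson's r = 0.728 (permutation p = 0.00623, adjusted p = 0.0623 over 30 relations) and Spearman's rho = 0.626 (permutation p = 0.0243, adjusted p = 0.186) with the mean log2 CPM of the adipocyte markers. With the macrophage marker mean, it had r = -0.757 (permutation p = 0.0052, adjusted p = 0.0623) and rho = -0.747 (permutation p = 0.00526, adjusted p = 0.0789). Without the 2 mice farthest from the median of *Lctl*, the values of r were 0.794 and -0.688. Neither relation passed after adjustment. *Lctl* with *Klb* gave r = 0.605, which was 0.294 without the 2 farthest mice, and so rested on those mice.

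**Figure D2:**
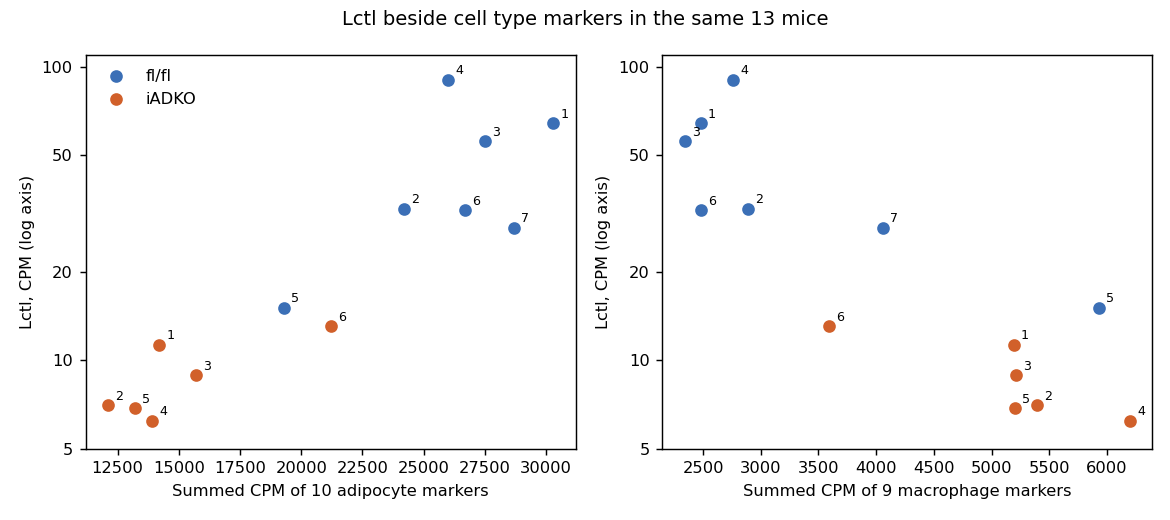
*Lctl* in CPM on a log axis against the summed CPM of 10 adipocyte markers (left) and of 9 macrophage markers (right), with 1 point per mouse and its replicate number. The fl/fl replicate 5 and iADKO replicate 6 points, at 15.1 and 13.1 CPM, lie beside each other between the groups in the left panel.

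The genes whose levels were most like those of *Lctl* across the 13 mice, after the genotype means were subtracted and among 13853 genes, were *Jup*, which encodes the junction protein plakoglobin, and *Slc16a12*, a creatine transporter. Pearson's r was 0.925 for both, and Spearman's rho was 0.945 and 0.901. These 2 genes were lower in iADKO, with log2 fold changes of -0.40 (standard error 0.10, edgeR quasi-likelihood adjusted p = 0.0120) and -0.78 (standard error 0.23, adjusted p = 0.0239). The nearest to *Klb* were *Pgd*, a dehydrogenase of the pentose phosphate pathway, at r = 0.970, and *Uba1*, the enzyme that activates ubiquitin, at r = 0.953. *Pgd* fell by 0.85 on the log2 scale in iADKO (standard error 0.19, adjusted p = 0.00533), and *Uba1* had a log2 change of -0.053 (standard error 0.068, adjusted p = 0.581). All these values of r are the highest of many and carry no p.

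The genes around *Lctl* had small differences. Within 500 kb on each side, 9 other genes were tested, a set chosen by position with values of this comparison known. Their log2 fold changes were -0.36 to 0.29 (median 0.08, beside 0.033 over all genes tested). Of the 9, 1 rose and 2 fell, while 14.1% of all genes tested rose and 16.3% fell. *Smad6*, an inhibitor of BMP signaling, had -0.36 (standard error 0.10, edgeR adjusted p = 0.0201) and *Dis3l*, a subunit of the RNA exosome, -0.31 (standard error 0.065, adjusted p = 0.00359). *Rpl4*, a ribosomal protein gene, had 0.24 (standard error 0.066, adjusted p = 0.0132). *Zwilch*, which overlaps *Lctl* on the opposite strand, had 0.16 (standard error 0.13, adjusted p = 0.364). It held 771 counts over all mice beside 6883 for *Lctl*. The libraries were strand-specific, but whether the counting used strand is not given in the sources used here, and without it reads of the 2 genes cannot be told apart where they overlap.

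**Figure D3:**
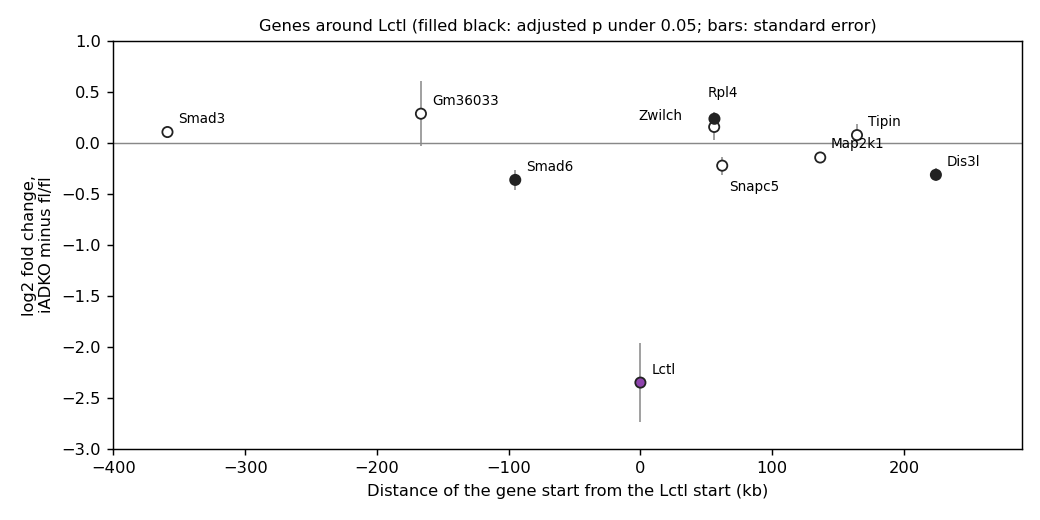
Log2 fold change (iADKO minus fl/fl, with standard error) of *Lctl* and the 9 other tested genes within 500 kb, against the distance of their start from that of *Lctl* in kb. *Lctl* lies at -2.35 and its neighbours between -0.36 and 0.29.

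*Fgfr1* (ENSMUSG00000031565; chromosome 8, plus strand, 26003670 to 26066824), the receptor that pairs with β-klotho, was the steadiest of the 7 genes. It was at 211 to 241 CPM in fl/fl (median 222, n = 7) and 217 to 244 CPM in iADKO (median 226, n = 6), with the genotypes overlapping. The log2 fold change was 0.025 (standard error 0.051), and the differences within the 2 series were 0.0021 and 0.040 in mean log2 CPM. Its SD of log2 CPM within genotypes was 0.0739, beside 0.696 for *Lctl*, 0.589 for *Fgf1*, 0.304 for *Klb* and 0.256 for *Fgf10*. Relative to the falling adipocyte marker sum, *Fgfr1* was at 7.53 to 11.1 CPM per 1000 CPM in fl/fl and 10.3 to 19.7 in iADKO. The 2 genes most like it across mice were *Vhl*, the ubiquitin ligase subunit that marks HIF for breakdown, at r = 0.896, and *Adamtsl4*, an extracellular matrix gene, at r = 0.888.

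*Fgf1* (ENSMUSG00000036585; chromosome 18, minus strand, 38971717 to 39077186), an autocrine and paracrine ligand of adipose tissue that binds all FGF receptors, had no genotype difference beyond the spread between mice and split the mice in another way. It was at 149, 281, 164, 265, 267, 276 and 134 CPM in fl/fl replicates 1 to 7. It was at 341, 300.0, 140, 240, 254 and 96.8 CPM in iADKO replicates 1 to 6. The log2 fold change was 0.058 (standard error 0.29), and the 2 series differed by 0.75 and -0.80 in mean log2 CPM. Above 200 CPM lay 8 mice, 4 of each label, and below it lay 3 fl/fl and 2 iADKO mice, with no mouse between 164 and 240 CPM.

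The 2 genes most like *Fgf1* across the 13 mice were *Upk3b*, a marker of the mesothelium that lines the depot, at r = 0.981 and rho = 0.973, and *Gpm6a*, a membrane glycoprotein gene, at r = 0.970 and rho = 0.945. *Upk3b* was at 255 to 383 CPM in the 8 mice with high *Fgf1* and 137 to 225 CPM in the other 5. *Lrrn4*, another mesothelial marker, was at 58.4 to 112 CPM in the former and 21.3 to 48.3 CPM in the latter. The markers *Msln* and *Krt19* overlapped between these mice. *Msln* was at 55.1 to 134 and 20.5 to 68.0 CPM, and *Krt19* at 46.2 to 64.2 and 26.8 to 81.3 CPM. Across the 13 mice, r of *Krt19* with *Fgf1* was 0.364. Of the 5 mesothelial markers and *Gpm6a*, 4 of 6 did not overlap between these 2 sets of mice, which were formed from *Fgf1* itself. *Upk3b* and *Gpm6a* were picked for likeness to *Fgf1*, and the share over all genes was not taken, so nothing is read from this count. Since the mice fell into separate sets, r was also taken within the 8, on log2 CPM without subtracting genotype means, which is another measure. There it was 0.818 with *Upk3b*, 0.758 with *Gpm6a* and 0.546 with the mean of the mesothelial markers. The 5 others were too few for a value. The mesothelial list was written with the likeness to *Upk3b* in view, so it adds no independent support. None of its 5 markers passed the genotype test, with summed levels of 312 to 651 CPM in fl/fl and 280 to 754 CPM in iADKO, and how much mesothelium each sample held was not tested.

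**Figure D4:**
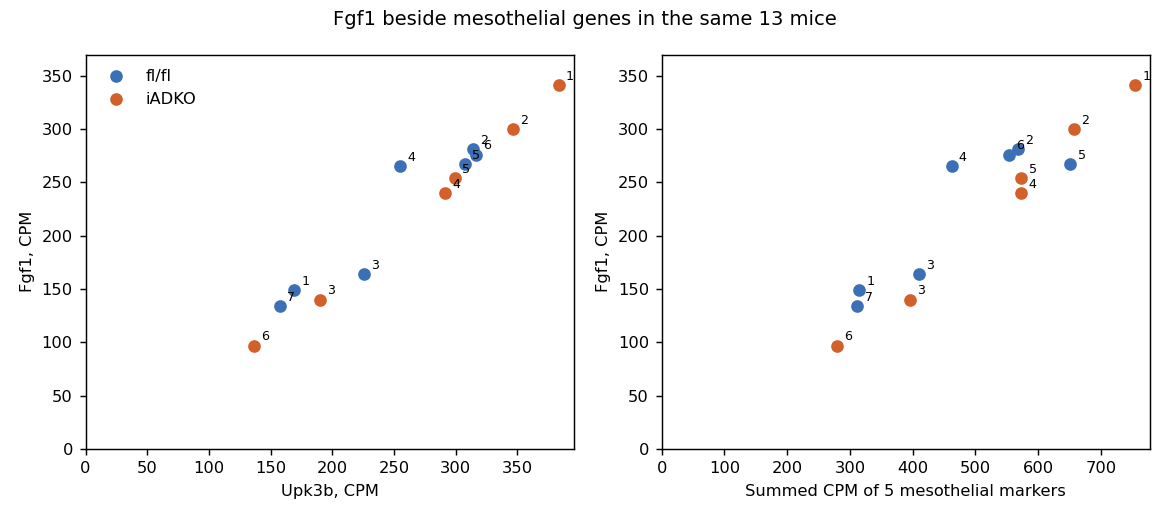
*Fgf1* in CPM against *Upk3b* in CPM (left) and against the summed CPM of 5 mesothelial markers (right), with 1 point per mouse, its replicate number and colors for the labels. The 8 mice above 200 CPM of *Fgf1* and the 5 below it include both genotypes.

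*Fgf10* (ENSMUSG00000021732; chromosome 13, plus strand, 118806327 to 118928672), a paracrine ligand of FGFR2 known from adipose progenitors, was lower on average in iADKO with overlapping groups. It was at 95.3, 58.3, 64.0, 81.9, 58.5, 88.7 and 64.4 CPM in fl/fl replicates 1 to 7. It was at 61.5, 50.8, 55.7, 51.4, 44.0 and 64.2 CPM in iADKO replicates 1 to 6. The mean level was 73.0 ± 15.3 CPM in fl/fl (SD, n = 7) and 54.6 ± 7.46 CPM in iADKO (SD, n = 6), and 4 of the 6 iADKO mice were below all fl/fl mice. The log2 fold change was -0.42 (standard error 0.13), with -0.34 and -0.27 in mean log2 CPM within the series. Relative to the adipocyte marker sum the order turned, with 2.24 to 3.33 CPM per 1000 CPM in fl/fl beside 3.03 to 4.33 in iADKO. That sum fell in iADKO, and any gene that falls less than it turns on this scale, so nothing is read from the turn. None of 8 adipose progenitor markers passed the genotype test. The genes most like it were *Ist1*, of the ESCRT machinery, at r = 0.888, and *Dpf3*, a chromatin remodeling subunit, at r = 0.882.

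*Fgf21* (ENSMUSG00000030827; chromosome 7, minus strand, 45263301 to 45266963), the endocrine ligand of the β-klotho receptor, was made at most at a trace level in this depot. It had 4, 2, 4, 5, 1, 4 and 7 counts in fl/fl replicates 1 to 7. It had 4, 4, 6, 8, 5 and 3 counts in iADKO replicates 1 to 6. The totals of 27 and 30 counts left it below the filter, and no difference was detectable at this depth. *Fut1* overlaps it on the opposite strand and held 196 counts beside 57 for *Fgf21*. *Klb*, *Fgfr1*, *Fgf1* and *Fgf10* also overlap annotated genes on the opposite strand, of which *Rpl9*, beside *Klb*, held 76683 counts over all mice against 10704 for *Klb*.

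Of the 7 genes, 5 passed the filter and 2 of these, *Lctl* and *Fgf10*, had an adjusted p under 0.05, while 30.5% of all 16753 genes tested did. With the series of animal numbers as a block, *Lctl* alone of the 7 had one, and over all genes 784 rose and 1202 fell. The groups did not overlap for 1 gene, *Lctl*, beside 6.64% of all genes tested. The genes were chosen on this comparison, so nothing is read from these counts.

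Other genes of FGF signaling were counted by role in 9 lists of 98 genes, of which 97 were in the table and 82 were tested. Of the 82, 16 rose in iADKO (19.5%, beside 14.1% of all genes tested), 19 fell (23.2%, beside 16.3%) and 47 did neither. Their median log2 fold change was 0.039, beside 0.033 over all genes tested. The shares of 14.1% and 16.3% over all genes tested also stand beside the counts of each list below. Adjusted p-values below are from edgeR's quasi-likelihood test over all 16753 genes. With the series of animal numbers as a block, 7 rose and 10 fell.

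Among the secreted ligands outside the 7 genes, 1 of the 5 tested fell, none rose, and the list's median was 0.096. *Fgf2*, a broadly acting paracrine ligand, was at 101 to 123 CPM in fl/fl (median 113, n = 7) and 62.8 to 75.2 CPM in iADKO (median 69.8, n = 6). The groups did not overlap, and the log2 fold change was -0.69 (standard error 0.059, adjusted p = 4.53e-05). The other 4 tested were *Fgf7*, *Fgf9*, *Fgf16* and *Fgf18*, and 9 ligands, *Fgf15* and *Fgf23* among them, were below the filter. *Fgf8* was not analysed here.

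The intracellular FGF homologous factors, which act on sodium channels and not on FGF receptors, fell in 3 of 3 tested (median -0.79). *Fgf11* was at 23.6 to 31.7 CPM in fl/fl and 15.6 to 20.4 CPM in iADKO, without overlap, with a log2 change of -0.61 (standard error 0.086, adjusted p = 4.13e-04). *Fgf13* had -1.30 (standard error 0.42, adjusted p = 0.0339), with ranges of 3.04 to 20.6 and 2.15 to 8.40 CPM that overlapped. *Fgf14*, at most 2.38 CPM, had -0.79 (standard error 0.28, adjusted p = 0.0459). The calls of *Fgf13* and *Fgf14* were lost with the series as a block (adjusted p = 0.229 and 0.289).

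Of the 3 other FGF receptors tested, 1 rose, 1 fell and 1 did neither. *Fgfr2*, the receptor of FGF10 and FGF7 in its epithelial splice form, was at 16.0 to 22.9 CPM in fl/fl (median 19) and 22.1 to 26.1 CPM in iADKO (median 24.8), and 5 of 6 iADKO mice were above all fl/fl mice. Its log2 fold change was 0.30 (standard error 0.078, adjusted p = 0.0114), and with the series as a block 0.26 (adjusted p = 0.071). *Fgfrl1*, an FGF-binding receptor without a kinase domain, was at 138 to 245 CPM in fl/fl (median 188) and 81.3 to 150 CPM in iADKO (median 109), with a log2 change of -0.81 (standard error 0.15, adjusted p = 0.00183). *Fgfr3* had -0.35 (standard error 0.19, adjusted p = 0.168), and *Fgfr4* was below the filter.

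Of 20 tested genes of heparan sulfate and FGF carriers, 4 rose and 3 fell (median 0.078). *Sdc1*, the gene of the proteoglycan syndecan-1, was at 46.4 to 91.0 CPM in fl/fl and 92.1 to 141 CPM in iADKO, without overlap, with a log2 change of 0.74 (standard error 0.16, adjusted p = 0.00477). *Sdc3* had 0.65 (standard error 0.12, adjusted p = 0.00168), with 5 of 6 iADKO mice above all fl/fl mice. *Gpc4*, a glypican, had -0.33 (standard error 0.098, adjusted p = 0.0200), which with the series as a block was -0.25 (adjusted p = 0.178), and *Sulf2*, which removes sulfates from heparan sulfate, -0.23 (standard error 0.065, adjusted p = 0.0178). *Hs6st1* and *Ndst2*, of heparan sulfate sulfation, also rose, and *Ext2*, of its chain synthesis, fell. Within the 2 series, the differences in mean log2 CPM were 0.51 and 0.17 for *Hs6st1* and 0.42 and -0.015 for *Ndst2*. For *Ext2* they were -0.26 and -0.097.

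Among the 19 tested adaptors and genes of the ERK cascade, 2 were higher and 3 lower, with a median of 0.013. Over all genes tested, 14.1% rose and 16.3% fell. *Plcg1*, the phospholipase that FGF receptors bind, was at 150 to 178 CPM in fl/fl and 129 to 141 CPM in iADKO, without overlap, with a log2 change of -0.28 (standard error 0.050, adjusted p = 0.00153). *Ptpn11*, the phosphatase SHP2, had -0.29 (adjusted p = 0.00624), and *Sos2*, a guanine exchange factor for Ras, also fell. The adaptor *Grb2* had 0.30 (adjusted p = 0.00535) and the ubiquitin ligase *Cbl* 0.35 (adjusted p = 0.0154). Both rises were lost with the series as a block (adjusted p = 0.0576 and 0.103).

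Of 17 tested ERK feedback and response genes, 6 rose and 1 fell (median 0.13). *Fos*, an immediate early gene, was at 4.2 to 19.8 CPM in fl/fl (median 9.40) and 15.9 to 66.0 CPM in iADKO (median 23.3), with a log2 change of 1.47 (standard error 0.42, adjusted p = 0.0198). *Dusp5*, a nuclear ERK phosphatase, rose by 0.68 (standard error 0.18, adjusted p = 0.0113), and its relative *Dusp4* fell by 0.78 on the log2 scale (standard error 0.21, adjusted p = 0.0147). *Etv5*, *Myc*, *Spred1* and *Etv1* also rose. The FGF feedback genes *Spry1*, *Spry2*, *Spry4* and *Dusp6* did not pass the test. Several of the risers respond to other growth factors and to stress as well, macrophage markers were higher in the same mice, and the part of either was not tested. With the series as a block, 3 of the list rose, and *Fos* and *Dusp4* were not among the calls (adjusted p = 0.0521 and 0.0584).

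Of 6 regulators of *Fgf21* transcription, 4 fell and 1 rose (median -0.53), while *Fgf21* itself stayed at a trace. The remaining regulator, *Atf4*, did not pass, with a log2 change of 0.18 (standard error 0.089, adjusted p = 0.14). *Mlxipl*, which encodes the carbohydrate sensor ChREBP that acts at E-boxes, was at 142 to 259 CPM in fl/fl (median 191) and 85.7 to 105 CPM in iADKO (median 96.0). The groups did not overlap, and the log2 fold change was -0.98 (standard error 0.13, adjusted p = 2.73e-04). *Ppara*, a nuclear receptor of fatty acids, had -0.81 (standard error 0.23, adjusted p = 0.0165), which had an adjusted p of 0.0523 with the series as a block, and *Pparg* and *Rxra* also fell. *Ddit3*, the stress factor CHOP, was at 6.38 to 8.91 CPM in fl/fl and 9.33 to 11.7 CPM in iADKO, without overlap, with a log2 change of 0.59 (standard error 0.089, adjusted p = 5.85e-04). *Mlxipl*, *Pparg* and *Rxra* are expressed by adipocytes, whose markers fell in the same mice, and the part of that fall was not tested.

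Of 5 genes that FGF21 is known to raise in adipose tissue, 3 fell and 1 rose (median -0.75). *Adipoq*, the adiponectin gene and 1 of the 10 adipocyte markers, had -0.75 (standard error 0.13, adjusted p = 0.00155). *Ucp1*, of thermogenesis, was at 3.76 to 40.8 CPM in fl/fl and 0.672 to 6.93 CPM in iADKO, with a log2 change of -2.92 (standard error 0.72, adjusted p = 0.00983). Leaving out 1 mouse gave -3.81 to -2.48 for *Ucp1*, with the former value without iADKO replicate 5. *Dio2*, which activates thyroid hormone, had -0.92 (standard error 0.30, adjusted p = 0.0318), a call that was lost with the series as a block (adjusted p = 0.0681). *Slc2a1*, the glucose transporter GLUT1, rose by 0.45 (adjusted p = 0.00548). Of 5 brown adipocyte markers, 3 of which stand in these 2 lists, 4 fell. In the list of klotho shedding and the FGF23 axis, 1 of 4 tested rose: *Adam17*, a protease that sheds klotho from the cell surface, by 0.33 (standard error 0.10, adjusted p = 0.0308), a call that was lost with the series as a block (adjusted p = 0.22).

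**Figure D5:**
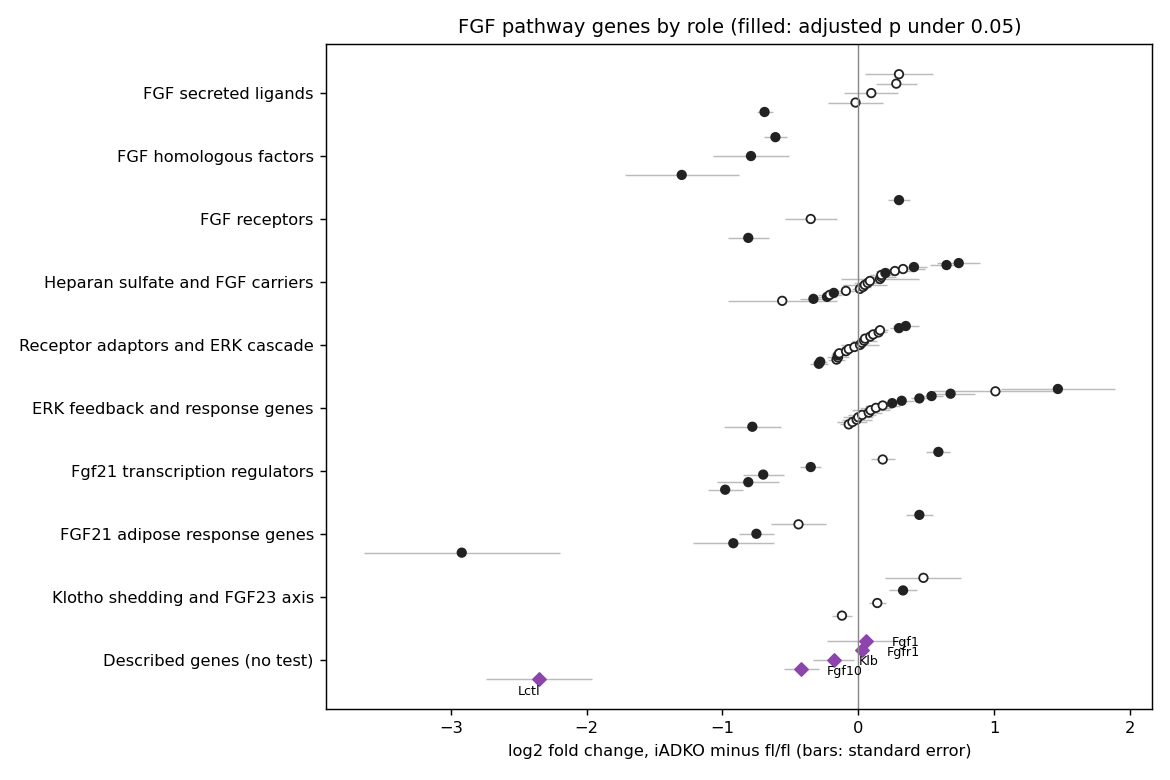
Log2 fold change (iADKO minus fl/fl, with standard error) of the 82 other tested pathway genes by role, filled where the adjusted p was under 0.05, with the 5 tested genes described above as diamonds without a test. Of the 82, 16 filled points lie right of 0 and 19 left of it.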

How the data were processed

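Bulk RNA-Seq of whole pmWAT from 7 fl/fl and 6 iADKO female mice was used. Groups and replicate numbers were taken from the labels. The series of animal numbers were formed here from the library names, which do not state them. Per the submitters' processing notes, reads were checked with FastQC 0.12.1 and aligned with STAR 2.7.11a to mm39. The counting tool, its strand setting and the annotation are not given in the sources used here. The authors deposited raw counts for each of 33618 Ensembl genes, and log2 values on the regularized log (rlog) scale of DESeq2, which were used in 1 alternative. Of the gene identifiers, 33184 were found in GENCODE vM39, which gave symbols, positions and exon lengths on GRCm39. Totals were 18854223 to 19776491 counts per mouse, and errors are the spread between mice.

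In R 4.3.3, edgeR 4.0.16 filtered the genes (filterByExpr, 16753 left), scaled them by TMM and tested genotype with the robust quasi-likelihood test, with a threshold of 0.05 on Benjamini-Hochberg adjusted p-values. Standard errors follow from the fold change and the test statistic. Log2 CPM used a prior count of 2. Likeness was the Pearson correlation of log2 CPM after subtracting genotype means, among genes averaging 1 or more on that scale. The 30 relations of 5 genes with each other and with marker means were tested with 100000 permutations, two-sided. The code was tested on simulated data. Alternatives were size factors of DESeq2 1.42.0, its Wald test, no filter, a minimum of 10 counts in each library, blocks for the replicate number and for the series of animal numbers, limma 3.58.1 on the rlog values, and each mouse left out in turn.

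The 7 genes and all lists were chosen with earlier results of these data known. Named are the 7 genes, *Lmna*, the tested FGF receptors, in each role list every gene past the threshold if at most 4 and otherwise the 2 largest rises and falls, and the 2 genes most like each of the 7 with a mean of at least 1 CPM. Other genes of the lists and the neighbors of *Lctl* were named after their values were seen.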

Additional observations from a re-analysis of the deposited data

Results flagged for a closer look

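In 62 groups of 6 or 7 mice, 1 for each genotype and each tested gene of the 7 or gene named from the role lists, the highest or lowest mouse was compared with the gap that chance exceeds in about 5% of groups. *Cbl* was at 173 CPM in fl/fl replicate 5, above 121 to 138 CPM in the other fl/fl mice. *Adam17* was at 99.2 CPM in the same mouse, above 66.6 to 76.4 CPM in the others. *Dio2* was at 9.27 CPM in fl/fl replicate 6, above 4.34 to 5.75 CPM in the others. In iADKO replicate 6, *Fos* was at 66.0 CPM and *Dusp4* at 57.5 CPM, above 15.9 to 25.9 and 25.4 to 33.9 CPM in the other iADKO mice. *Adam17* was at 70.7 CPM in that mouse, below 92.6 to 105 CPM in the others.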

How the results depend on the processing

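Over all genes, 2367 rose and 2737 fell, and leaving out each mouse in turn gave 1769 to 3319 and 2216 to 3285. In the pathway lists these counts were 13 to 20 and 15 to 21. With the animal number series as a block, 784 genes rose and 1202 fell, with 7 and 10 in the pathway lists and 1 of the 7 described genes (*Lctl*) past the threshold. Without a filter on low counts that number was also 1. With each mouse left out it was 1 to 3: *Fgf10* was lost without fl/fl replicate 1, 4 or 6 or iADKO replicate 2, 4 or 5, and *Klb* joined without fl/fl replicate 5. The 7 genes were chosen on this comparison, so nothing is read from their calls. *Lctl* had a log2 fold change of -1.57 on the rlog values and -2.50 to -2.10 with each mouse left out, and the range was -0.28 to -0.13 for *Klb*, 0.0056 to 0.044 for *Fgfr1*, -0.088 to 0.21 for *Fgf1* and -0.47 to -0.34 for *Fgf10*. The causes were not tested.

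Leaving out 1 mouse ended the call of *Adam17* for 9 of the 13 mice (adjusted p = 0.05 to 0.0702), of *Fgf14* for 10 (0.0589 to 0.0976), and of *Fgf13* (0.0625 to 0.0714) and *Dio2* (0.0514 to 0.0677) for 6 each. Values were also recomputed for 27 named genes, which were *Lmna* and the genes named from the role lists, without the 7 described genes. Of these 540 values, 488 kept their side of the threshold, and all kept their direction where called. With the replicate number as a block and fl/fl replicate 7 left out, 2379 genes rose and 2454 fell, *Lctl* had -2.28, and *Fgf14* lost its call. Same-numbered mice deviated together only in part (correlations of -0.0265 to 0.217 over 6 pairs), so the numbers were not taken as pairing. *Kl* and *Fgf21* had too few counts for any comparison.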
